A study of Mus musculus with 9 samples.

Results

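The genes described here encode 10 enzymes of purine salvage and urate synthesis: Aprt, Hprt and Adk, which return free bases or adenosine to nucleotides, Pnp, Ada, Gda, Ampd2, Ampd3 and Nt5e, which break nucleotides, nucleosides or bases down or convert them, and Xdh, which makes urate. They were taken by gene symbol, Aprt as ENSMUSG00000006589, Hprt as ENSMUSG00000025630, Adk as ENSMUSG00000039197, Pnp as ENSMUSG00000115338, Ada as ENSMUSG00000017697, Gda as ENSMUSG00000058624, Ampd2 as ENSMUSG00000027889, Ampd3 as ENSMUSG00000005686, Nt5e as ENSMUSG00000032420, Xdh as ENSMUSG00000024066, from the table of the series, where 10 of 55385 genes carried these symbols. All 10 had reads in every library, from 96 reads for Ada in Control 5 to 17932 reads for Nt5e in Control 2, and all 10 were among the 21392 genes that passed the filter on low counts.

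The series holds 9 poly(A) RNA libraries from mouse kidney, each from its own mouse, with 3 mice in each of 3 groups. The animals were male C57BL/6J mice 8 to 10 weeks old, given as C57BL/6 in the labels. HN stands for hyperuricemic nephropathy, a kidney disease model brought about by adenine at 0.16 g/kg with potassium oxonate at 2.4 g/kg, given every other day for 4 weeks. Control mice received neither, HN mice (4, 8 and 12) received both and no further treatment, and PEC mice (1, 2 and 3) received both with oral pectolinarigenin, a plant flavonoid, given daily over the same weeks. The study used more than 1 PEC dose and describes the sequenced mice as given 25 mg/kg, the lower dose, while the labels state none. The titles of the Control libraries (2, 4 and 5) also carry the words HN mice, and their disease state label says control.

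Purine nucleotides are broken down through nucleosides and free bases to hypoxanthine, guanine and xanthine. At several points the intermediate has a choice: a kinase or a phosphoribosyltransferase returns it to the nucleotide pool, or a deaminase or oxidase sends it on towards urate. Xdh, xanthine dehydrogenase, makes the last steps from hypoxanthine through xanthine to urate, and it also oxidises adenine to the poorly soluble 2,8-dihydroxyadenine when Aprt does not salvage it. In mice urate is broken down further by urate oxidase, Uox, mainly in the liver, and potassium oxonate blocks that enzyme. The kidney filters, reabsorbs and secretes urate, mostly in the proximal tubule.

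Each library held between 57714111 and 81069646 counted reads, with a median of 74397038. Pairs of libraries of 1 group differed well beyond counting noise, with chi-square per degree of freedom from 62.8 to 212, and none held the same counts. The PEC libraries stood apart from the other 6 in a measure unrelated to purines. Reads at 354 ribosomal RNA loci made up 0.117%, 0.682% and 0.119% of PEC 1, 2 and 3, against 0.00163% to 0.00283% in the Control and HN libraries. Across 21358 genes, the log2 fold change of PEC against HN ran with transcript length at a Spearman rho of -0.329 and with GC content at 0.170, while the same values for HN against Control were 0.0939 and 0.0399. No label gives a batch or a preparation of its own to the PEC libraries. These differences coincide with the PEC group, so the treatment and any difference in preparation cannot be told apart here. Mitochondrially encoded genes took 13.3%, 12.9% and 16.3% of the Control reads, 6.01%, 6.22% and 6.34% of the HN reads and 13.0%, 10.3% and 13.6% of the PEC reads.

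The tissue label was checked against marker genes. Proximal tubule markers were abundant in every library, with Slc27a2 at 827.5 FPKM and Slc34a1 at 708.2 FPKM on average in Control. FPKM divides a count by transcript length and by the total of the library. The extraction label speaks of an adipose sample, and the summed FPKM of 5 adipocyte markers was 4.33, 0.13 and 0.05 in Control 2, 4 and 5, 0.27, 0.39 and 11.9 in HN 4, 8 and 12, and 0.22, 0.16 and 118.2 in PEC 1, 2 and 3. Adipocyte transcripts were thus highest in PEC 3, followed by HN 12 and Control 2. In PEC 3 Adipoq, which encodes adiponectin, reached 5539 reads against 0 to 559 in the other libraries.

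The scaling between libraries shifted all genes of a comparison together. The values below are CPM, counts relative to library size and scaled by trimmed mean of M values (TMM), under which the median log2 fold change of all tested genes was 0.00 for HN against Control, -0.01 for PEC against HN and 0.05 for PEC against Control. The deposited FPKM are scaled by total reads. Scaling the counts by totals moved those medians to 0.56, -0.21 and 0.40, so a gene that follows the bulk of the transcriptome appears higher in HN on that scale. A call needed a fold change of 1.5 or more in either direction and an adjusted p of 0.05 or less over all tested genes. Of all calls for HN against Control 54.5% were higher with TMM and 85.7% with totals. For PEC against HN these shares were 46.8% and 29.6%, and for PEC against Control 52.1% and 76.6%. With limma on log2(FPKM + 1) they were 81.9%, 28.6% and 70.7% in the same order.

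The comparison of HN with Control asks how the model changed these enzymes. Gda rose, Adk and Nt5e fell, and 7 of the 10 genes were not called. A share of 1 higher and 2 lower in 10 stands beside 17.7% of all tested genes called higher and 14.7% called lower, and the median log2 fold change of the 10 genes was -0.08. With totals 4 were called higher (Gda, Xdh, Ampd2 and Ampd3) and 1 lower (Adk), beside 36.0% and 6.01% of all tested genes on that scale. This comparison shares its Control mice with that of PEC with Control and its HN mice with that of PEC with HN.

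The comparison of PEC with HN asks what pectolinarigenin did in diseased kidneys. Gda and Nt5e fell and no enzyme was called higher, beside 15.3% of all tested genes called lower and 13.4% called higher. The count of 0 higher with edgeR was also 0 at an unadjusted p and by DESeq2, while Adk was called higher once transcript length and GC content were taken into account. Against Control, PEC kidneys held less Adk and Nt5e and more Ampd3, 2 lower and 1 higher of 10, beside 17.4% and 18.9% of all tested genes. The medians of the 10 genes were -0.05 and -0.16 in these comparisons. The count called lower in PEC against HN was 1 without HN 8, HN 12, PEC 1 or PEC 3, because Nt5e was no longer called. Without PEC 3, Ada turned to -0.01 in that comparison, Ampd2 to -0.07 and Pnp to 0.01, while Adk had 0.24. Ada also turned without PEC 2 (-0.008), and Pnp without HN 4 (0.015) or HN 8 (0.007).

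**Figure D1:**
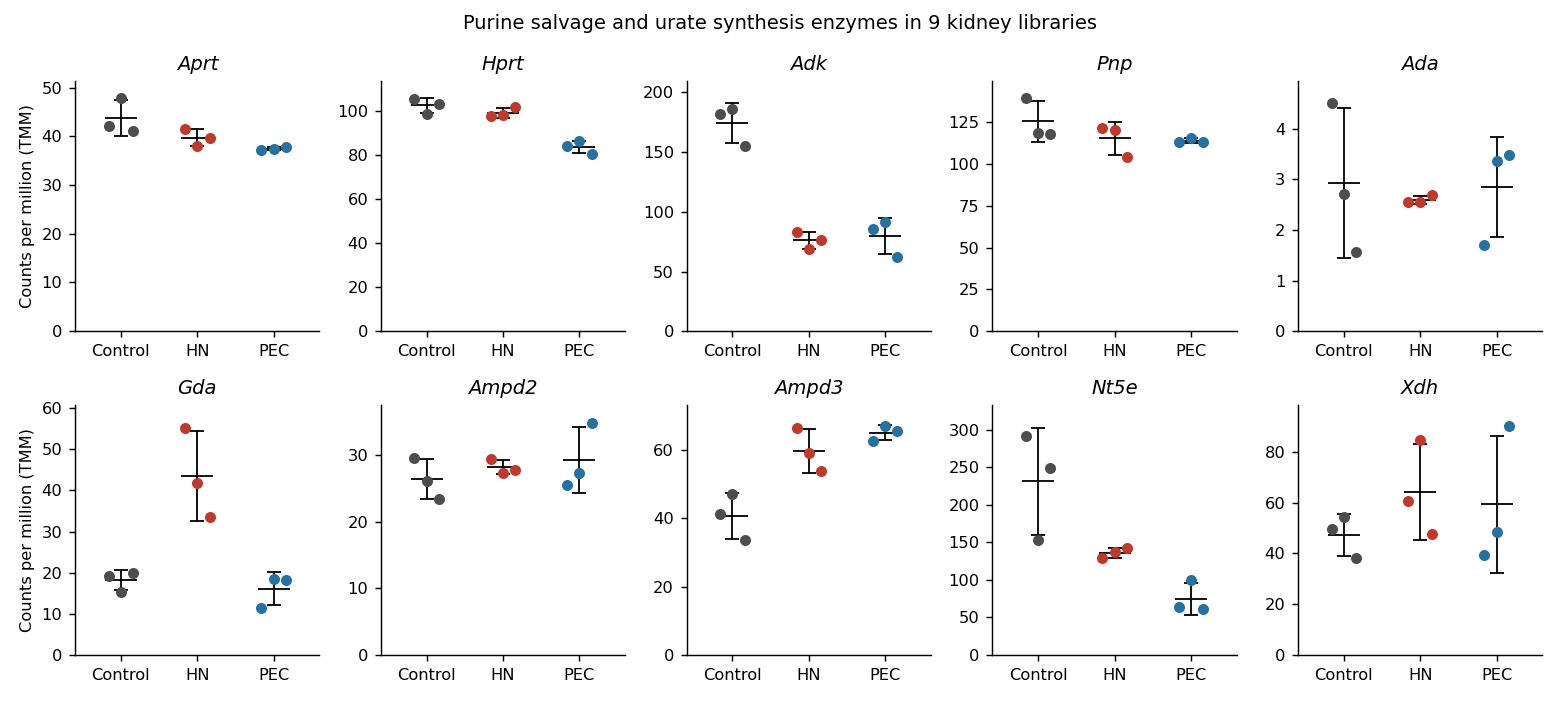
TMM-scaled CPM (vertical axes, each from 0) of the 10 enzymes in 9 kidney libraries. Each point is 1 mouse, the horizontal line is the group mean and the bars are 1 SD with n = 3. Adk lay between 155.4 and 186.3 in Control and between 62.3 and 91.6 in the 6 libraries of the model, and Gda between 33.6 and 55.2 in HN and between 11.5 and 19.8 elsewhere.

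In order of level, Hprt stood first in every group, with Control kidneys at 58.8 ± 2.03 FPKM, HN kidneys at 82.5 ± 3.94 FPKM and PEC kidneys at 59.8 ± 2.13 FPKM (SD, n = 3 throughout). Pnp followed at 23.3 ± 2.53, 31.0 ± 2.12 and 26.3 ± 0.344 FPKM, and Aprt at 20 ± 2.2, 26.3 ± 0.711 and 21.4 ± 0.188 FPKM. These FPKM are scaled by totals, and the higher HN levels of all 3 genes are not seen after TMM scaling. In Control, Pnp, Aprt, Nt5e (19.8 ± 5.94 FPKM) and Adk (15.2 ± 1.88 FPKM) overlapped with their neighbours in the order, as did Ampd3 (5.35 ± 1.05 FPKM), Xdh (3.83 ± 0.775 FPKM) and Ampd2 (3.73 ± 0.507 FPKM). Gda (2.15 ± 0.249 FPKM) and Ada (1.08 ± 0.568 FPKM) stood last and apart. In HN the order changed below Aprt: Nt5e had 17.0 ± 1.32 FPKM, Ampd3 11.4 ± 0.895, Adk 9.54 ± 0.707, Xdh 7.50 ± 2.24, Gda 7.45 ± 1.65, Ampd2 5.78 ± 0.102 and Ada 1.39 ± 0.0764, where, of genes next to each other in the order, Adk with Xdh and Xdh with Gda overlapped. In PEC, Ampd3 at 10.7 ± 0.390 FPKM had the highest mean below Aprt and overlapped with Nt5e (7.99 ± 2.34). Adk (8.62 ± 1.68), Nt5e, Xdh (5.95 ± 2.71) and Ampd2 (5.15 ± 0.869) overlapped from each to the next. Gda had 2.38 ± 0.595 FPKM and Ada 1.30 ± 0.454 FPKM there. Gda, the guanine deaminase, thus stood below Xdh in Control and overlapped with it in HN.

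The genes lie on separate chromosomes apart from Adk and Pnp, which are both on chromosome 14. The table's coordinates are those of the mouse build GRCm38. RefSeq promoter windows of that build, 250 bases before to 50 after the start, were at hand for 9 of the 10 genes, all but Xdh. Gda and Adk are shown because they were called in opposite directions in HN against Control under every setting tried. Capitals mark the letters GGGCGG (a GC box) or CCAAT on either strand, read as CCGCCC or ATTGG on the other. The Gda window is chr19:21472612-21472911 on the minus strand, and the first of the Adk windows in the table is chr14:21052324-21052623 on the plus strand.
Gda: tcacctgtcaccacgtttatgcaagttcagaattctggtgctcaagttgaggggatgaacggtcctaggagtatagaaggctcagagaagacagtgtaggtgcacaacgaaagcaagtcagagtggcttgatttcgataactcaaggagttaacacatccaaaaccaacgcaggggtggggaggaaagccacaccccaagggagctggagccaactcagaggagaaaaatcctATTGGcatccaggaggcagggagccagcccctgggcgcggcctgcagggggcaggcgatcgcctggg
Adk: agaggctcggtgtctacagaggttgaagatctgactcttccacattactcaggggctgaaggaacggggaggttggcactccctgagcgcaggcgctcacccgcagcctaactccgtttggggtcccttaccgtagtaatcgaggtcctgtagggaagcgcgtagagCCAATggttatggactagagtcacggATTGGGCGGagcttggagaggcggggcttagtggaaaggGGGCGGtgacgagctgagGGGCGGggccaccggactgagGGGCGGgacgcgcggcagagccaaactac
The Gda window is 55.0% G or C with 9 CpG, holds no GC box and has 1 CCAAT match. That of Adk is 61.7% G or C with 21 CpG and has 4 GC boxes and 2 CCAAT matches, of which a GC box and an ATTGG share letters. Over all 32851 promoter windows in the table the medians were 52.7% G or C and 7 CpG, and 35.7% held a GC box, 37.4% a CCAAT and 13.6% a TATAAA. None of the 9 genes' windows holds TATAAA on either strand. These are matches of letters, and no binding was measured.

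Adk, adenosine kinase, turns adenosine back into AMP and so keeps it out of the path to inosine and urate. The gene lies at chr14:21052574-21448569 on the plus strand. In Control 2, 4 and 5 its level was 181.9, 186.3 and 155.4 CPM, in HN 4, 8 and 12 it was 82.9, 68.9 and 76.6, and in PEC 1, 2 and 3 it was 85.4, 91.6 and 62.3. Every library of the model, treated or not, lay below every Control library, and HN and PEC overlapped. Adk fell by 1.197 on the log2 scale in HN against Control (SE 0.149, 95% interval -1.53 to -0.86, adjusted p = 0.000211), to 0.436 of the Control level. It was called under every setting, the smallest change being -0.61 with limma on log2(FPKM + 1). PEC differed from HN by 0.07 (SE 0.147, adjusted p = 0.748) with TMM, by -0.13 with totals and by 0.73, called higher, once length and GC content were removed. Against Control the PEC value was -1.13 (SE 0.149, adjusted p = 0.000301), called, and -0.44, not called, with length and GC content removed. Adk has 8526 annotated exon bases, and the sign of its difference between PEC and HN depended on the setting.

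Aprt, adenine phosphoribosyltransferase, is the salvage enzyme for the adenine that was given. It lies at chr8:122574635-122576890 on the minus strand. Its level was 42.0, 47.9 and 41.2 CPM in Control 2, 4 and 5, 41.5, 38.1 and 39.6 in HN 4, 8 and 12, and 37.2, 37.4 and 37.8 in PEC 1, 2 and 3. Control and HN overlapped, and the PEC libraries lay together below all 6 others by a small margin. The HN value was -0.14 on the log2 scale (95% interval -0.33 to 0.06, adjusted p = 0.240) with TMM and turned to 0.42 with totals and 0.38 with FPKM. PEC differed from Control by -0.22 (adjusted p = 0.0605), a sign that also turned with totals, to 0.14, and from HN by -0.08 (adjusted p = 0.471). With length and GC content removed, the PEC values were -0.44 against HN and -0.56 against Control, both short of the fold threshold.

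Hprt, hypoxanthine-guanine phosphoribosyltransferase, salvages the bases that Xdh and Gda would otherwise consume. It lies at chrX:52988137-53021659. Its level was 105.5, 98.8 and 103.2 CPM in Control 2, 4 and 5, 97.7, 98.3 and 101.9 in HN 4, 8 and 12, and 84.1, 86.3 and 80.5 in PEC 1, 2 and 3. All 3 PEC libraries lay below the other 6. The differences were small, -0.25 against HN (adjusted p = 0.0188) and -0.29 against Control (adjusted p = 0.00673, 0.07 with totals), and neither reached a fold of 1.5. With length and GC content removed they were -0.16 and -0.04. HN differed from Control by -0.05 (adjusted p = 0.636), which turned to 0.51 with totals and 0.12 with length and GC content removed. Pnp, purine nucleoside phosphorylase, splits inosine and guanosine into bases. It lies at chr14:50931082-50953412, and its CPM ran from 118.1 to 139.3 in Control, 104.0 to 121.4 in HN and 112.8 to 115.4 in PEC. HN overlapped with both other groups, and PEC lay below Control. Its value was -0.12 in HN (adjusted p = 0.337) and 0.43 with totals, and the PEC values were -0.02 against HN (0.01 without mitochondrial genes) and -0.14 against Control, the latter 0.22 with totals. Pnp shares 1084 bases at 97.2% identity with its neighbour Pnp2, 36.8% of its transcript, and 718 exon bases with Gm49342, which had at most 2 reads. On the opposite strand Gm38316 covers 356 exon bases of Pnp (8.9%), with at most 66 reads. Reads may have been shared out between Pnp and Pnp2, so the Pnp values carry that uncertainty. Pnp2 had 263 to 672 reads a library and Pnp 6809 to 11718, counts that would themselves depend on such sharing, which was not tested.

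Gda, guanine deaminase, converts guanine to xanthine, the direct precursor of urate, and so takes guanine away from Hprt. The gene lies at chr19:21391307-21472672 on the minus strand. Its level was 19.3, 15.3 and 19.8 CPM in Control 2, 4 and 5, 55.2, 41.9 and 33.6 in HN 4, 8 and 12, and 11.5, 18.5 and 18.3 in PEC 1, 2 and 3. All HN libraries lay above all others, and PEC overlapped with Control. Gda rose by 1.26 on the log2 scale in HN against Control (SE 0.231, 95% interval 0.74 to 1.79, adjusted p = 0.00200), which is 2.4-fold. It fell by 1.44 in PEC against HN (SE 0.232, 95% interval -1.96 to -0.91, adjusted p = 0.00139), to 0.369 of the HN level. Both calls held under every setting, with values from 1.204 to 1.818 and from -1.63 to -0.88, and with any 1 library left out. Between PEC and Control the value was -0.17 (95% interval -0.69 to 0.34, adjusted p = 0.567) with TMM, 0.19 with totals and 0.32 with length and GC content removed, and no setting called it. Of the 10 enzymes Gda alone was called higher in HN against Control and lower in PEC against HN, comparisons that share the HN mice.

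**Figure D2:**
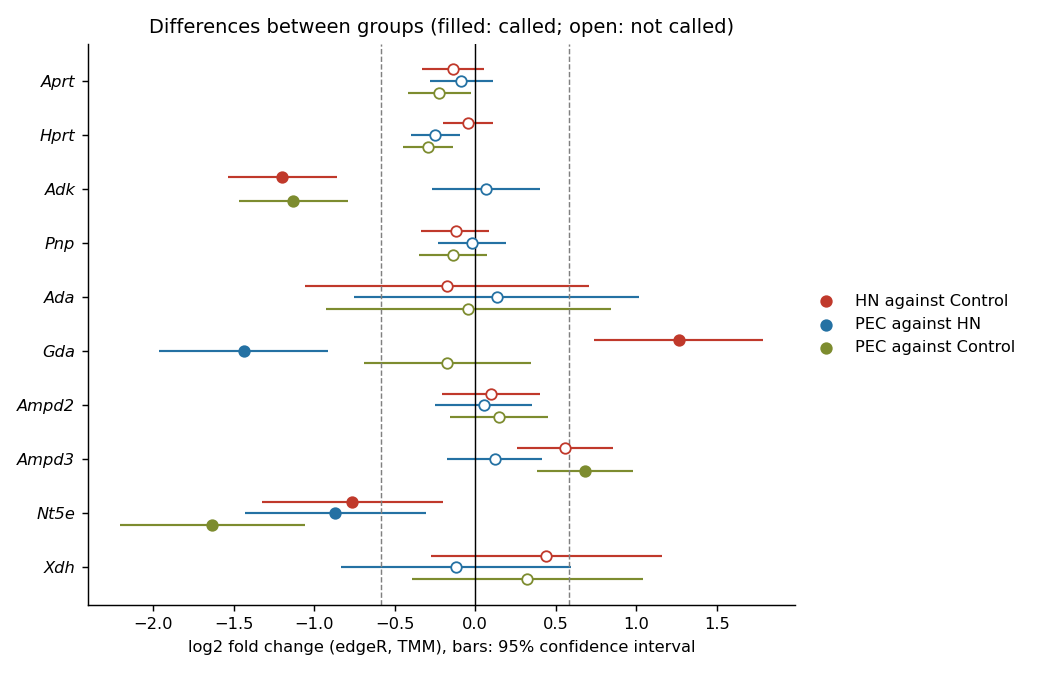
Log2 fold changes of the 10 enzymes from edgeR with TMM scaling (horizontal axis) for the 3 comparisons, with 95% confidence intervals as bars and dashed lines at a fold of 1.5. Filled points were called. Gda stands at 1.26 in HN against Control and -1.44 in PEC against HN, Adk at -1.197 and 0.07, and the latter value changes sign with totals.

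Ada, adenosine deaminase, competes with Adk and sends adenosine to inosine. The gene lies at chr2:163726584-163750239 on the minus strand. It was the least abundant of the 10, at 4.51, 2.71 and 1.57 CPM in Control 2, 4 and 5, 2.56, 2.54 and 2.69 in HN 4, 8 and 12, and 1.71, 3.36 and 3.48 in PEC 1, 2 and 3. The Control libraries alone spanned the values of every other library. The log2 fold change was -0.17 in HN (95% interval -1.06 to 0.71, adjusted p = 0.764) and turned to 0.37 with totals, and 0.13 in PEC against HN (adjusted p = 0.816) and turned to -0.07. At 96 to 278 reads a library, and with this spread, a change within that interval was not detectable. The AMP deaminases take AMP itself to IMP. Ampd2, the form of liver and many other tissues, lies at chr3:108074062-108086627 and ran from 23.5 to 29.6 CPM in Control, 27.4 to 29.5 in HN and 25.6 to 34.9 in PEC. All groups overlapped, the HN value was 0.10 (adjusted p = 0.612), -0.07 with length and GC content removed, and the call higher in HN with totals (0.65) and with limma on log2(FPKM + 0.1) (0.62) came with a shift of the median of all genes of 0.56 and 0.47.

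Ampd3, first described in red cells, lies at chr7:110768206-110812405. Its level was 41.3, 47.1 and 33.5 CPM in Control 2, 4 and 5, 66.5, 59.1 and 53.8 in HN 4, 8 and 12, and 62.6, 67.1 and 65.6 in PEC 1, 2 and 3. The 6 libraries of the model all lay above the 3 Control libraries. In HN the log2 fold change was 0.56 (SE 0.131, 95% interval 0.26 to 0.85, adjusted p = 0.00775), a fold of 1.47 that missed the threshold of 1.5. It passed with totals (1.11), both limma fits (0.97 and 1.09), a filter on mean FPKM (0.60), the 2 groups alone (0.59), without Control 4 (0.68) and without HN 12 (0.63). In PEC against Control it rose by 0.68 (SE 0.131, adjusted p = 0.00252), 1.60-fold, and was not called without Control 5 (0.56). PEC and HN differed by 0.12 (adjusted p = 0.494) with TMM and by -0.07 with totals, with overlapping libraries. Like Pnp, Ampd2 and Ampd3 overlap genes on the opposite strand, 434 exon bases of Ampd2 with Gm12500 and 196 and 195 exon bases of Ampd3 with B430319F04Rik and Rnf141, and since the strand of counting is not given in the sources used here, reads of these stretches cannot be told apart. The stretch in Ampd2 makes up 8.3% of its exon bases and each of those in Ampd3 3.5%. Gm12500 had at most 81 reads, B430319F04Rik at most 102 and Rnf141 at most 3244, beside 2044 to 5760 for Ampd3.

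Nt5e, the ecto-5'-nucleotidase CD73, sits on the cell surface and makes adenosine from AMP outside the cell. In the kidney it is known from proximal tubule and interstitial fibroblasts. The gene lies at chr9:88327197-88372092 on the plus strand. Its level was 290.9, 152.8 and 249.2 CPM in Control 2, 4 and 5, 128.7, 137.6 and 142.1 in HN 4, 8 and 12, and 63.7, 99.6 and 60.5 in PEC 1, 2 and 3. No group overlapped with another, Control 4 being close to HN. Nt5e fell by 1.63 in PEC against Control (SE 0.254, 95% interval -2.205 to -1.056, adjusted p = 0.000768), to 0.323 of the Control level, and this was called under every setting. The step from Control to HN was -0.76 (SE 0.249, adjusted p = 0.0349) and that from HN to PEC -0.87 (SE 0.250, adjusted p = 0.0225), both called. Both calls depended on which libraries were kept, although the value was about as large in several of the fits that lost them. In HN against Control the call was lost with totals (-0.20), both limma fits (-0.17 and -0.18), no filter on low counts (-0.74), and without Control 2 (-0.56), Control 5 (-0.70), HN 4 (-0.72), HN 8 (-0.77) or HN 12 (-0.79). FPKM overlapped there, at 13.5 to 25.2 in Control and 15.5 to 18.1 in HN. In PEC against HN it was lost without HN 8 (-0.87), HN 12 (-0.84), PEC 1 (-0.77) or PEC 3 (-0.71).

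Xdh, the urate-forming enzyme, lies at chr17:73883895-73950196 on the minus strand. Its level was 49.6, 54.3 and 38.1 CPM in Control 2, 4 and 5, 60.6, 84.8 and 47.5 in HN 4, 8 and 12, and 39.4, 48.5 and 90.1 in PEC 1, 2 and 3. In HN 8 and in PEC 3 it stood well above the other libraries of the group, and all 3 groups overlapped. The log2 fold change in HN was 0.44 (SE 0.317, 95% interval -0.28 to 1.16, adjusted p = 0.306) and 0.20 without HN 8, and Xdh was called higher only on the scales that raise the median of all genes, with totals (0.99) and in both limma fits (0.80 and 0.93). PEC differed from HN by -0.12 (95% interval -0.83 to 0.60, adjusted p = 0.8), 0.28 with length and GC content removed, 0.13 without HN 8, 0.10 without PEC 1 and -0.53 without PEC 3. Against Control the PEC value was 0.32 (adjusted p = 0.431) and turned to -0.09 without PEC 3. PEC 3 is the library with the most adipocyte transcripts, and their part in its Xdh level was not tested. Xdh was not called in either PEC comparison under any setting run, and its intervals include a fold of 1.5 either way against HN.

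**Figure D3:**
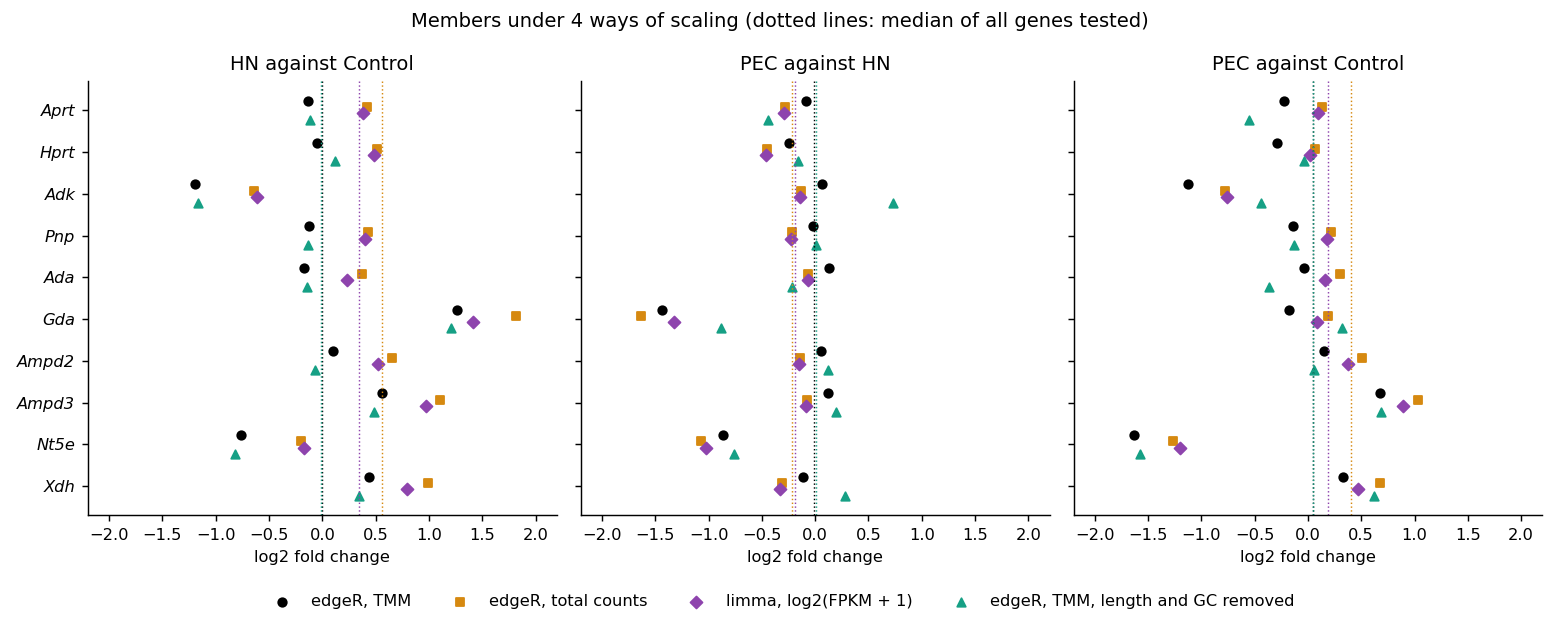
Log2 fold changes of the 10 enzymes (horizontal axes) in the 3 comparisons under 4 ways of scaling, with dotted lines at the median of all genes tested. In HN against Control, Aprt, Hprt, Ada and Pnp lie below 0 with TMM and between 0.23 and 0.51 with totals or FPKM, while Gda and Adk keep their sign in that comparison.

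The pattern of Xdh across the 9 libraries was most like that of 1700023B13Rik (Pearson r = 0.938), Tprg (0.921) and Znfx1 (0.913) among all tested genes. For Aprt the closest genes were Gm10231 (0.968), Lnx2 (0.960) and Sec22b (0.953). Such an r mixes differences between groups with the spread within them, since the libraries fall into groups, and these are the highest of 21392 values each. Of the 3 genes named for Xdh, Znfx1 stood at 12.6 FPKM on average, while 1700023B13Rik and Tprg stood at 0.289 and 0.0322 FPKM.

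At 4 branch points the ratio of the competing enzymes was formed from the FPKM within each library, which is free of the scaling between libraries. Tests on it were exact permutation tests, two-sided, in which 3 mice against 3 cannot give a p below 0.1, with 12 comparisons adjusted together. For guanine, Gda stood to Hprt as 0.0378, 0.0320 and 0.0397 in Control 2, 4 and 5, as 0.117, 0.0881 and 0.0681 in HN 4, 8 and 12, and as 0.0281, 0.0444 and 0.0469 in PEC 1, 2 and 3. The transcript ratio of every HN kidney lay above that of every other kidney. On the log2 scale the ratio was 1.29 higher in HN than in Control and differed by -1.19 in PEC from HN (exact p = 0.1, the lowest these groups allow, and adjusted p = 0.300 for each), and by 0.10 from Control (exact p = 0.700; -0.04 without PEC 3). The ratio carries the lengths of both genes, so it was also taken, without a test, as the difference of their log2 fold changes with length and GC content removed, a choice made after seeing the data. It was then 1.08, -0.73 and 0.36 in the same order. Hprt exceeded Gda in every library all the same.

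For adenosine, Ada stood to Adk as 0.105, 0.0616 and 0.0422 in Control 2, 4 and 5, as 0.131, 0.157 and 0.1497 in HN 4, 8 and 12, and as 0.0846, 0.155 and 0.237 in PEC 1, 2 and 3. The HN ratios lay above all Control ratios, by 1.16 on the log2 scale (exact p = 0.1, adjusted p = 0.300). The PEC ratios spread widely and overlapped with both groups, 1.17 above Control (exact p = 0.200) and 0.01 from HN (exact p = 1.00). Leaving out PEC 3 gave 0.82 and -0.34, and removing length and GC content gave 0.07 and -0.95. For adenine, Xdh stood to Aprt as 0.208, 0.200 and 0.163 in Control 2, 4 and 5, as 0.257, 0.392 and 0.211 in HN 4, 8 and 12, and as 0.186, 0.229 and 0.419 in PEC 1, 2 and 3. HN lay above Control without overlap, though by little for HN 12, with a log2 difference of 0.55 (exact p = 0.1, adjusted p = 0.300), which was 0.30 without HN 8. PEC overlapped with both, at 0.47 from Control (exact p = 0.300) and -0.08 from HN (exact p = 0.8), which became 0.13 and -0.42 without PEC 3 and 1.18 and 0.72 with length and GC content removed. For hypoxanthine, the log2 ratio of Xdh to Hprt ranged from -4.27 to -3.70 in Control, -3.93 to -3.05 in HN and -3.93 to -2.67 in PEC, and no comparison came below an exact p of 0.300. PEC differed from HN by 0.08 there, by -0.30 without PEC 3 and by 0.43 with length and GC content removed. HN differed from Control by 0.46, by 0.24 without HN 8 and by 0.23 with length and GC content removed. In FPKM, Aprt, Adk and Hprt exceeded their competitor in all 9 kidneys.

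**Figure D4:**
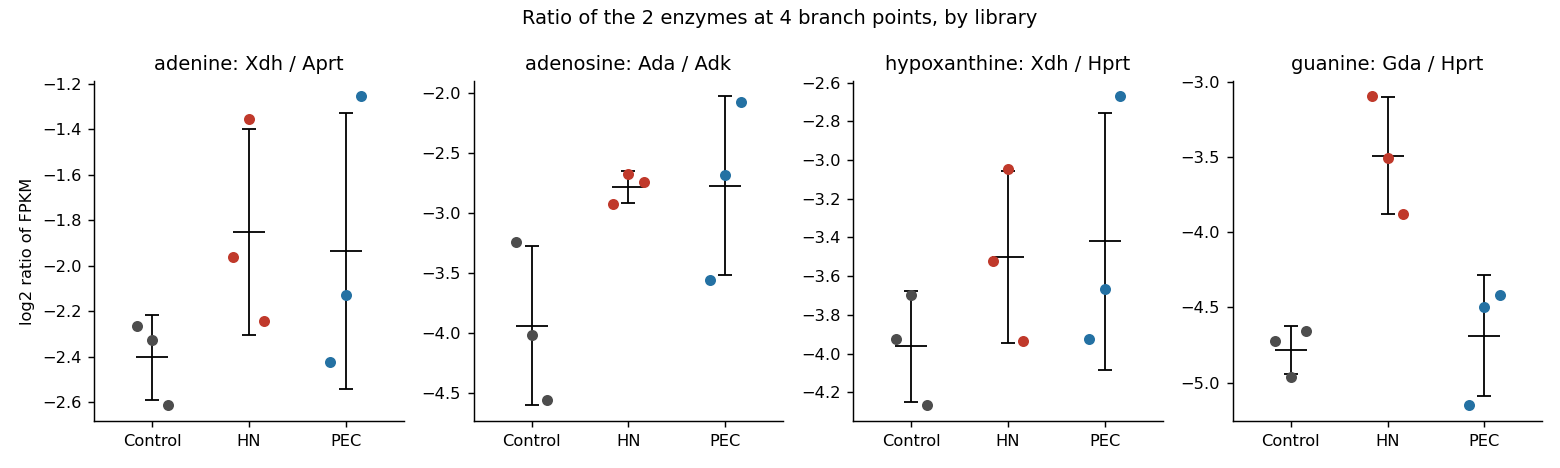
Log2 ratio of FPKM of the competing enzymes (vertical axes) at 4 branch points, in 9 libraries, with group mean and 1 SD (n = 3). The guanine ratio lies between -3.88 and -3.10 in HN and between -5.15 and -4.41 in all other libraries, and the other ratios overlap between HN and PEC.

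Lists of other purine genes put these values in context, and the most abundant gene of a list is the one with the highest mean FPKM over all 9 libraries. Beside the counts of each list stand the shares of all tested genes called higher and lower. They were 17.7% and 14.7% in HN against Control (36.0% and 6.01% with totals). For PEC against HN they were 13.4% and 15.3% (9.12% and 21.6% with totals, 12% and 11% with length and GC content removed). For PEC against Control they were 18.9% and 17.4% (30% and 9.16% with totals, 18.4% and 15.2% with length and GC content removed). Of 13 genes of de novo synthesis, the route that builds purines anew, 2 rose and 1 fell in HN against Control, at a median of -0.15 beside 0.00 for all tested genes (4 rose and none fell with totals, at 0.40). Impdh2, which commits IMP to guanine nucleotides, rose by 0.79 (adjusted p = 0.00207), and Atic, which makes the last steps to IMP, rose by 0.78 (adjusted p = 9.82e-05). Pfas fell by 0.63 (adjusted p = 0.00188, not called with totals), and the most abundant gene, Paics, had -0.59 in HN and fell by 0.90 in PEC against Control, where totals gave no call (-0.54). PEC against HN had 1 rise and 1 fall (0 and 1 with totals, 2 and 0 with length and GC content removed). PEC against Control had 1 rise and 3 falls, but 4 and 1 with totals and 0 and 2 with length and GC content removed.

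Of 14 further genes of salvage and interconversion 13 were tested, and in HN against Control 2 rose and 5 fell, at a median of -0.23 (3 and 1 with totals, at 0.32). The shares of all tested genes were 17.7% and 14.7% (36.0% and 6.01% with totals). Dck, the deoxynucleoside kinase, rose by 1.74 (adjusted p = 0.000269) and fell by 1.27 in PEC against HN, going from 6.54, 6.67 and 5.34 CPM in Control to 18.1, 25.4 and 18.6 in HN and 6.08, 9.14 and 10.5 in PEC. All HN libraries lay above all others, as for Gda. Ak1, the cytosolic adenylate kinase, rose by 0.80 (adjusted p = 0.000652). The mitochondrial Ak4 fell by 2.49 (adjusted p = 0.000128), from 103.6 FPKM in Control to 26.8 in HN and 31.8 in PEC, and Ak3, the most abundant over all 9 libraries though below Ak4 in Control, fell by 1.061 (not called with totals, -0.50) and rose by 0.67 in PEC against HN (not called with totals, 0.47). Pnp2 was not called, at -0.23 in HN, 0.32 with totals. PEC against HN had 2 rises and 1 fall (1 of each with totals), beside 13.4% and 15.3% of all tested genes. PEC against Control had 1 of each (3 and 1 with totals, 1 and 2 with length and GC content removed), beside 18.9% and 17.4%.

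Beyond urate, Uox had 0, 9 and 0 reads in Control 2, 4 and 5, 179, 171 and 98 in HN 4, 8 and 12, and 65, 85 and 54 in PEC 1, 2 and 3. Urate oxidase transcripts were thus near absent from Control kidneys and present at a trace in the model, at 0.347 FPKM in HN and 0.180 in PEC. The rise was called, at a fitted log2 value of 5.04 (adjusted p = 0.00276) in HN and 4.32 (adjusted p = 0.00552) in PEC, sizes that depend on the prior count. Between PEC and HN it was -0.72 (adjusted p = 0.492). Of the other genes that take urate breakdown further, Urah was not called in any comparison, and Urad and Allc had no reads in any library.

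The next list held 13 nucleotidases, nucleotide pyrophosphatases and phosphatases, some of which act mainly on other nucleotides than AMP and ATP. In HN against Control 4 rose and 3 fell, at a median of 0.00 (6 and 2 with totals, at 0.56). The shares of all tested genes were 17.7% and 14.7% (36.0% and 6.01% with totals). Nt5c1a, a cytosolic AMP nucleotidase, rose by 3.29 (adjusted p = 0.00269) and fell by 2.28 in PEC against HN (adjusted p = 0.0155), and Nt5c3b rose by 0.96. Entpd5 fell by 1.69, and alkaline phosphatase Alpl, the most abundant over all 9 libraries though below Entpd5 in Control and Nt5c in HN, fell by 1.48 (adjusted p = 1.04e-05) and rose by 1.27 in PEC against HN (adjusted p = 5.9e-05). For PEC the counts were 1 rise and 3 falls against HN (1 and 4 with totals, 4 and 3 with length and GC content removed), beside 13.4% and 15.3% of all tested genes. Against Control they were 2 rises and 3 falls (5 and 1 with totals, 3 and 1 with length and GC content removed), beside 18.9% and 17.4%. Another list held 8 genes for the molybdenum cofactor that Xdh needs and for the other enzymes that carry it. In HN against Control 3 fell and none rose, at a median of -0.53, beside 14.7% and 17.7% of all tested genes. With totals 1 rose and 1 fell, at 0.03, beside 36.0% and 6.01%. With length and GC content removed 5 fell, beside 15.1%. Suox, sulfite oxidase, fell by 1.43, and Mocs2, which builds the cofactor, fell by 1.13, though not as a call with totals (-0.57). In PEC against HN 1 rose and 2 fell (0 and 3 with totals, 1 and 0 with length and GC content removed), beside 13.4% and 15.3% of all tested genes. Against Control 1 rose and 4 fell (1 and 3 with totals), beside 18.9% and 17.4%.

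Of 8 transporters of nucleosides and bases 7 were tested. In HN against Control 2 rose and 2 fell, at a median of 0.15 (4 and 1 with totals, at 0.70). The shares of all tested genes were 17.7% and 14.7% (36.0% and 6.01% with totals). The concentrative Slc28a2 rose by 2.89, with 22 to 28 reads in Control libraries and 210 to 356 in HN libraries, Slc29a4 rose by 2.36, with 4 to 12 and 42 to 62 reads, Slc28a1 fell by 1.71 and rose by 1.10 in PEC against HN (not called in limma, 0.55), and Slc29a3, the most abundant over all 9 libraries though below Slc43a3 in HN, fell by 0.67 (-0.10 with totals, not called). In PEC against HN 1 rose, beside 13.4% of all tested genes. Against Control 2 rose and 1 fell (5 and 0 with totals), beside 18.9% and 17.4% (30% and 9.16% with totals). Of the 4 receptors through which adenosine made by Nt5e acts, Adora2b alone was called with TMM (2 were with totals in HN against Control and in PEC against HN): it rose by 1.60 in HN against Control (adjusted p = 0.000467), fell by 0.72 in PEC against HN (adjusted p = 0.0306) and was 0.88 above Control in PEC (adjusted p = 0.0107). Control kidneys held 3.96, 2.66 and 2.31 CPM of it, HN kidneys 9.90, 7.25 and 9.89 CPM and PEC kidneys 5.57, 5.49 and 5.39 CPM, with no overlap between groups.

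Transcripts that mark cell types differed between the groups, and in whole kidney fewer cells of a type cannot be told apart from less RNA per cell. Of 10 proximal tubule markers 9 fell in HN against Control, 9 rose in PEC against HN (6, and 1 fell, with totals, and 8 with length and GC content removed) and 10 fell in PEC against Control (6 with totals). Their summed FPKM was 2519, 2621 and 2512 in Control 2, 4 and 5, 944.1, 927.2 and 976.2 in HN 4, 8 and 12, and 1645, 1948 and 1449 in PEC 1, 2 and 3. Slc22a6, the organic anion transporter that takes up urate among other anions, fell by 2.32 and Slc34a1 by 2.28, and the most abundant, Slc27a2, fell by 1.95. All 8 macrophage markers rose in HN against Control and 7 fell in PEC against HN (5 with length and GC content removed), with summed FPKM of 38.3 to 44.4 in Control, 877.7 to 998.5 in HN and 347.3 to 464.4 in PEC. Itgam rose by 5.45 and Ms4a7 by 4.98, and the most abundant was Lyz2 (4.73). All 7 fibroblast markers rose in HN and 5 fell in PEC against HN (2 with length and GC content removed), with sums of 37.8 to 43.6, 291.4 to 315.2 and 147.2 to 172.8 FPKM, led by Col1a1 (4.26) and Col3a1 (4.20). Col3a1 was the most abundant over all 9 libraries, with Acta2, Pdgfrb, Dcn and Pdgfra above it in Control and Acta2 and Col1a1 in PEC.

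Of 8 lymphocyte markers 7 rose in HN against Control, beside 17.7% of all tested genes. In PEC against HN 3 fell (5 with totals), beside 15.3% (21.6% with totals). Their summed FPKM ran from 2.83 to 6.15 in Control, 23.4 to 42.2 in HN and 6.08 to 8.79 in PEC. The values that follow are for HN against Control unless another comparison is named. Cd4 (3.30) and Cd3e (2.72) rose most, and Jchain was the most abundant (2.24, and -3.57 in PEC against HN). All 4 erythroid markers tested fell in HN and rose in PEC against HN, beside 14.7% and 13.4% of all tested genes. Their sum lay at 207.3 to 320.6 FPKM in Control, 38.0 to 59.4 in HN and 227.6 to 275.7 in PEC. Alas2 had -3.10 in HN against Control and Hbb-bt -2.99. Hba-a1, the most abundant over all 9 libraries though below Hbb-bs in PEC, had -2.90. Of 8 markers of loop of Henle, distal tubule and collecting duct 4 fell in HN (3, and 2 rose, with totals). The shares of all tested genes called lower were 14.7%, and 6.01% with totals. Slc4a1 fell by 2.26 and Aqp2 by 1.48, the most abundant, Umod, had 0.07, and Atp6v1b1 was not called (-0.255). In PEC against HN Slc4a1 rose by 1.37 and Slc12a3 by 0.80, as the erythroid markers did, and none fell (1 with totals), beside 13.4% and 15.3%. The part of red cells in the Slc4a1 level was not tested. Podocyte markers had 1 rise in 5 (3 with totals), beside 17.7% of all tested genes (36% with totals). The 1 called with TMM was Synpo (0.82), and their most abundant gene, Podxl, had -0.11 (0.44 with totals). Endothelial markers had 2 falls in 5, Kdr (-1.002) and Flt1 (-0.82), beside 14.7% of all tested genes. These 2 were not called with totals, where 1 marker rose (Cdh5, 1.002) and none fell, beside 36% and 6.01%. Emcn had -0.29 and 0.26 with totals. Emcn was the most abundant over all 9 libraries, with Pecam1 above it in Control and Cdh5 and Pecam1 in HN. Of 5 adipocyte markers 4 were tested and none was called in any comparison with edgeR, totals or limma.

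Gda, like 8 macrophage, 7 fibroblast and 7 of 8 lymphocyte markers, rose in HN against Control, beside 17.7% of all tested genes. Adk and Nt5e (the latter not with totals) fell there, as did 9 of 10 proximal tubule markers and all 4 erythroid markers tested, beside 14.7%. In PEC against HN, Gda fell, as did 7 of 8 macrophage, 5 of 7 fibroblast and 3 of 8 lymphocyte markers (5, 2 and 3 with length and GC content removed). Of all tested genes 15.3% were called lower and 13.4% higher in that comparison (11% and 12% with length and GC content removed). There 9 of the proximal tubule markers rose (6, and 1 fell, with totals, and 8 with length and GC content removed) while Nt5e fell. Adk was not called there, but was called higher (0.73) with length and GC content removed. In PEC against Control Gda was not called (-0.17), while 8 of 8 macrophage, 5 of 7 fibroblast and 4 of 8 lymphocyte markers were higher, beside 18.9% of all tested genes. With totals these were 8, 5 and 5, beside 30%, and with length and GC content removed 8, 6 and 5, beside 18.4%. Adk (not with length and GC content removed) and Nt5e were lower in that comparison, as were 10 of 10 proximal tubule markers (6 with totals), beside 17.4%. The part of these markers in the levels of the enzymes was not tested.

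**Figure D5:**
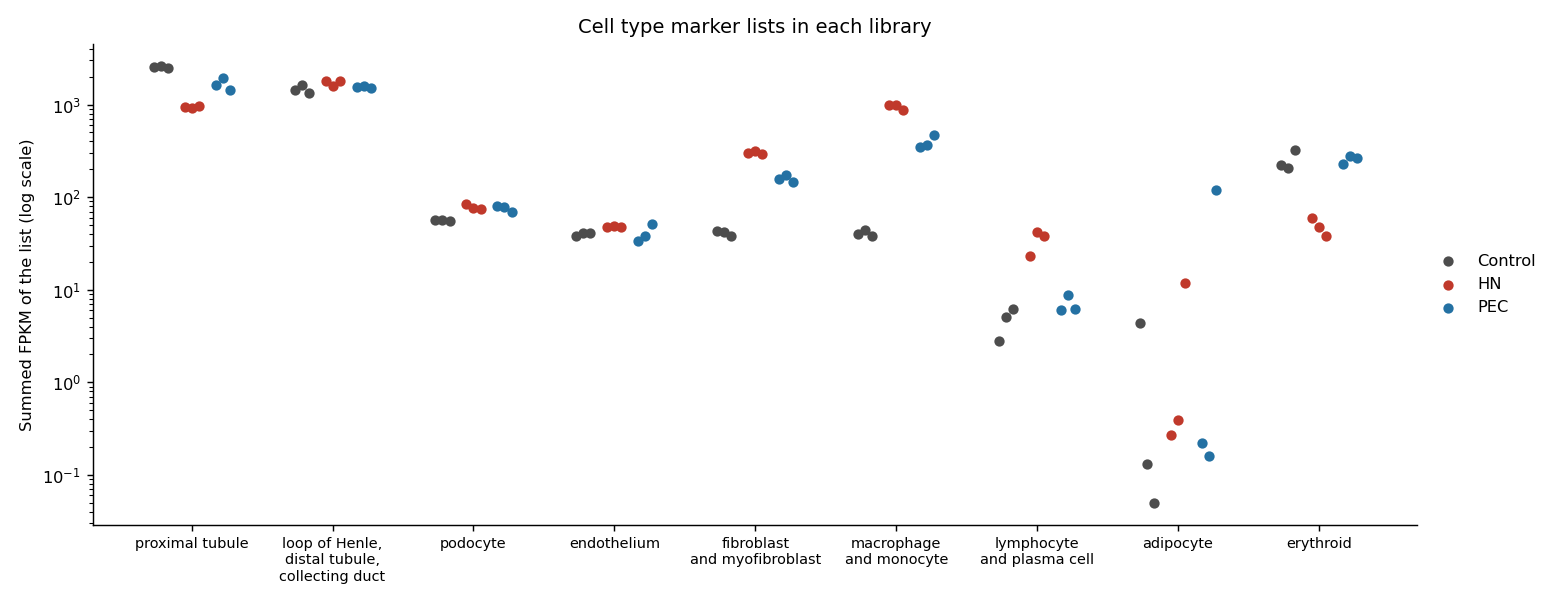
Summed FPKM (vertical axis, log scale) of 9 lists of cell type markers in each of the 9 libraries, coloured by group. Macrophage markers sum to at most 44.4 in Control and at least 877.7 in HN, proximal tubule markers to at least 2512 and at most 976.2, and adipocyte markers reach 118.2 in PEC 3.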

How the data were processed

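The authors deposited a table with a read count and an FPKM per gene and library. As deposited, the count values are whole reads per gene with no normalization, and the FPKM values were scaled by the authors by gene length and library total. The submitters' notes name Bowtie 0.12.2 and the builds mm8 and mm9, while 51954 of 55144 genes (94.22%) had the coordinates of GENCODE M21 on GRCm38. The counting program, its strand setting and its handling of reads with several matches are not stated.

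Counts were fitted with edgeR 4.0.16 in R 4.3.3 (quasi-likelihood F test, two-sided, TMM factors, filterByExpr, 1 coefficient per group over 9 libraries), with p adjusted by Benjamini-Hochberg over 21392 genes. Ratios were compared by exact permutation with scipy 1.17.1. Copies of the genes were sought with blastn 2.17.0. The fit was tried on simulated counts in which equal numbers of genes rose and fell in HN, a setting that cannot test the scaling between libraries. Libraries of each group were compared pair by pair for identical counts.

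Members and lists were chosen with earlier results of these data known. Besides all members, up to 2 called rises and 2 called falls per list in HN against Control were named, with the most abundant gene, genes without reads, Pnp2 and Uox.

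Alternatives were DESeq2 1.42.0, other scalings, limma 3.58.1 on log2 FPKM with 2 offsets, other filters and thresholds, mitochondrial genes left out, only the groups compared, length and GC content removed, and each library left out in turn. For ratios they were counts per kilobase, log2(FPKM + 1) and, chosen after seeing the data, fold changes with length and GC content removed.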

Additional observations from a re-analysis of the deposited data

How the results depend on the processing

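No paired analysis was possible because each library came from its own mouse and the replicate numbers (2, 4 and 5, then 4, 8 and 12, then 1, 2 and 3) link no mice across groups.

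In HN against Control, 1 member was called higher and 2 lower with edgeR and TMM. The count called higher was 4 with total counts, 3 with limma on log2(FPKM + 1), 4 with limma on log2(FPKM + 0.1), beside 36.0%, 30.0% and 38.1% of all genes called higher in these fits, and 2 with a mean FPKM of at least 0.5, with only the 2 groups compared or with no fold threshold. The count called lower was 1 with total counts, in both limma fits, with no filter and at a fold of 2. Of all genes 6.01%, 6.6%, 7.68%, 8.86% and 8.89% were called lower in these settings, in this order, and 14.7% with edgeR and TMM. Log2 fold changes changed sign with total counts, log2(FPKM + 1) and log2(FPKM + 0.1), in this order, for Aprt (0.418, 0.383 and 0.399), Hprt (0.513, 0.481 and 0.487), Ada (0.373, 0.232 and 0.446) and Pnp (0.433, 0.398 and 0.411). With length and GC content removed Hprt had 0.12 and Ampd2 -0.069.

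In PEC against HN, 0 members were called higher with edgeR (also 0 at an unadjusted p and by DESeq2) and 1 with length and GC content removed. The count called lower was 2, and 3 with no fold threshold and 1 at a fold of 2, beside 15.3%, 20.6% and 8.52% of all genes. At a fold of 2, 3594 of all genes were called. Signs changed in the same 3 settings for Adk (-0.131, -0.146 and -0.162), Ada (-0.069, -0.071 and -0.142), Ampd2 (-0.145, -0.148 and -0.174) and Ampd3 (-0.073, -0.082 and -0.088). They changed with length and GC content removed for Ada (-0.221), Pnp (0.005) and Xdh (0.276), and for Pnp without mitochondrial genes (0.011) and with a mean FPKM of at least 0.5 (0.001).

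In PEC against Control, 1 member was called higher, and 0 at a fold of 2 with edgeR, beside 18.9% and 14.1% of all genes. The count called lower was 2, and 3 with no fold threshold and 1 with length and GC content removed, beside 17.4%, 23.5% and 15.2%. All genes called numbered 5066 with log2(FPKM + 1) and 5102 at a fold of 2. Signs changed in the same 3 settings for Aprt (0.135, 0.094 and 0.098), Hprt (0.065, 0.023 and 0.024), Ada (0.304, 0.16 and 0.304), Pnp (0.218, 0.174 and 0.181) and Gda (0.186, 0.089 and 0.116). Ada had 0.017 with a mean FPKM of at least 0.5 and Gda 0.318 with length and GC content removed.

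Leaving out 1 library at a time gave 1 to 2 members called higher and 1 to 2 called lower in HN against Control, and Ada from -0.474 to 0.279. PEC against HN gave 1 to 2 called lower, with Adk from -0.048 to 0.243, Ada from -0.012 to 0.393, Pnp from -0.092 to 0.015, Xdh from -0.527 to 0.126 and Ampd2 from -0.068 to 0.136. PEC against Control gave 0 to 1 called higher, with Ada from -0.347 to 0.406, Gda from -0.291 to 0.019 and Xdh from -0.087 to 0.547. Log2 ratios in PEC against HN ranged from -0.424 to 0.166 for Xdh to Aprt, -0.343 to 0.399 for Ada to Adk and -0.296 to 0.331 for Xdh to Hprt, and in PEC against Control from -0.041 to 0.328 for Gda to Hprt.

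With length and GC content removed, an alternative for the ratios that was chosen after seeing the data and carries no test, the log2 ratio in PEC against HN was 0.718 for Xdh to Aprt, -0.952 for Ada to Adk and -0.728 for Gda to Hprt, beside -0.084, 0.005 and -1.194 in FPKM. In PEC against Control it was 1.181 for Xdh to Aprt and 0.072 for Ada to Adk, beside 0.467 and 1.167.

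Over the 9 settings that refit all libraries, 207 member fold changes had the same direction and call, 48 another sign, 10 gained a call and 5 lost it. With only the 2 groups compared, 29 had the same direction and call and 1 gained a call. The 3 other call rules leave fold changes as they are, and 3 calls were gained and 3 lost. With 1 library left out the numbers were 242, 16, 2 and 10. Of the ratios 63 had the same direction with 1 library left out and 9 did not. Counts per kilobase use the same reads and lengths as the FPKM, so their ratios are no separate check.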
